A study of Rattus norvegicus with 233 samples.

Results

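The 5 assays A03, A08, A17, A31 and A83, of 84 in a targeted real-time PCR panel, were picked by the share of single rat hepatocytes in which the assay gave a value. A08 had the largest gain in that share from 0 h to 24 h after partial hepatectomy on the control diet. A17 and A31 had the largest gains over the same interval on the ethanol diet, and A03 and A83 had the largest gains in ethanol-fed over control-fed cells at 0 h. The shares in those 3 comparisons are therefore a description of how the assays were chosen. The files give assay numbers without gene names, so no transcript can be named and no sequence shown, and the hepatocyte label could not be set against marker genes.

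The 233 cells were hepatocytes of rat liver, cut from tissue by laser capture microdissection. They fell into 4 groups: rats on the control diet, which the labels call carbohydrate, gave 69 cells from 0 h and 55 from 24 h after partial hepatectomy, and rats on the ethanol diet gave 55 from 0 h and 54 from 24 h. All animals were fed by the Lieber-De Carli protocol, a liquid diet used to give rodents ethanol, and all cells came from operated livers, those at 0 h being labelled as taken 0 h after resection. The sources used here do not give strain, sex, age or the number of animals, and do not say which animal a cell came from. A group therefore counted as 1 sample, no test between groups was made, and every interval and SD below is over cells and leaves out the spread between animals.

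Liver regrows after partial hepatectomy mainly because its remaining hepatocytes leave rest and divide, after a phase in which many genes are switched on. Long-term ethanol feeding is known to disturb this regrowth in rodents. In single cells a transcript that is made in bursts, or held at few copies, can be measured in some cells and missed in others, so the share of cells with a value and the level in those cells are separate readings.

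Each value is a cycle threshold (Ct), the PCR cycle at which product is detected. A lower Ct means more template, and an entry listed as NULL has no value. A NULL can stand for too little transcript or for a reaction that failed, which the files leave undistinguished. An assay is called detected in a cell where it has a value. Over the whole panel the deposited Ct ran from 2.5 to 25.9 with a median of 14.0, and 26.1% of entries were NULL. The overall Ct of a cell is used below for how much template it gave: the median Ct of 28 common assays, each detected in no less than 80% of the cells in any group, with a NULL counted as Ct 30. None of the 5 assays is among the 28. The median overall Ct was 14.5 in 0 h control cells, 13.3 in 24 h control cells, 13.6 in 0 h ethanol cells and 13.1 in 24 h ethanol cells, so it was highest in 0 h control cells, the group with the lowest share of each of the 5 assays below.

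A03 was detected in 34.8% of 0 h control cells, that is 24 of 69, with an exact 95% interval from 23.7% to 47.2%. It was detected in 89.1% of 24 h control cells (49 of 55, 77.8% to 95.9%), 78.2% of 0 h ethanol cells (43 of 55, 65.0% to 88.2%) and 77.8% of 24 h ethanol cells (42 of 54, 64.4% to 88.0%). Control cells at 0 h stood alone at the low end, and the other 3 groups overlapped in their intervals.

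A08 was detected in 20.3% of 0 h control cells (14 of 69, 11.6% to 31.7%) and 81.8% at 24 h (45 of 55, 69.1% to 90.9%). In ethanol cells it was detected in 49.1% at 0 h (27 of 55, 35.4% to 62.9%) and 77.8% at 24 h (42 of 54, 64.4% to 88.0%). Ethanol cells at 0 h lay between the 0 h control cells and both groups at 24 h, with an interval that met neither side.

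A31 was detected in 13.0% of 0 h control cells (9 of 69, 6.14% to 23.3%) and 69.1% at 24 h (38 of 55, 55.2% to 80.9%). In ethanol cells the shares were 45.5% at 0 h (25 of 55, 32.0% to 59.4%) and 77.8% at 24 h (42 of 54, 64.4% to 88.0%). As for A08, 0 h control cells were lowest and 0 h ethanol cells next, but the highest share was in 24 h ethanol cells. The interval of 0 h ethanol cells overlapped that of 24 h control cells.

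A83 was detected in 24.6% of 0 h control cells (17 of 69, 15.1% to 36.5%) and 78.2% at 24 h (43 of 55, 65.0% to 88.2%). In ethanol cells it was detected in 58.2% at 0 h (32 of 55, 44.1% to 71.3%) and 77.8% at 24 h (42 of 54, 64.4% to 88.0%). The ethanol interval at 0 h overlapped those of both groups at 24 h and lay above that of 0 h control cells.

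A17 was the rarest of the 5. It was detected in 10.1% of 0 h control cells (7 of 69, 4.18% to 19.8%) and 60.0% at 24 h (33 of 55, 45.9% to 73.0%), and in 20.0% of 0 h ethanol cells (11 of 55, 10.4% to 33.0%) and 53.7% at 24 h (29 of 54, 39.6% to 67.4%). Unlike the other 4 assays, its intervals at 0 h overlapped between the diets, and both lay below both intervals at 24 h.

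**Figure D1:**
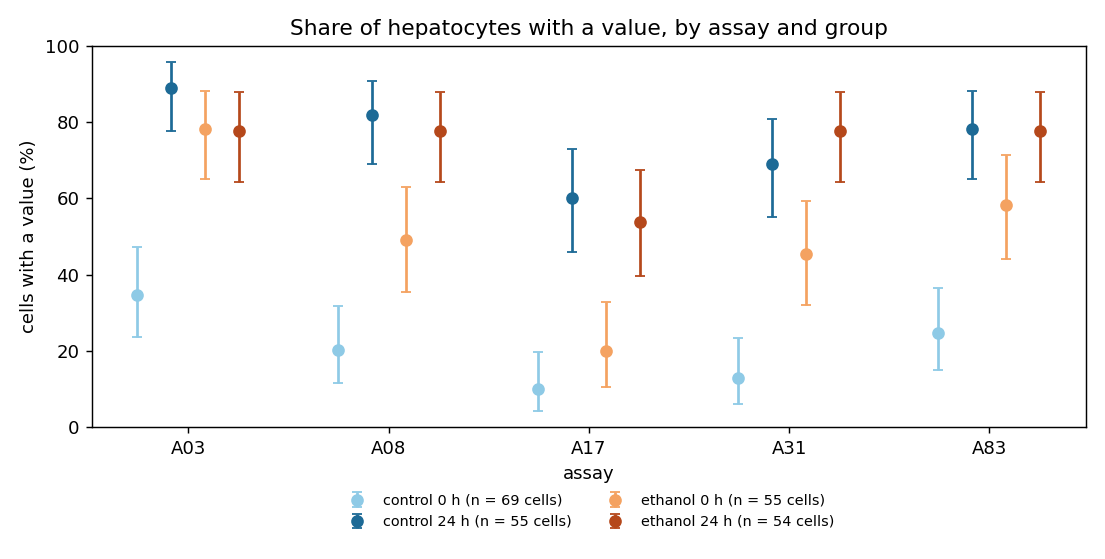
Share of cells with a value (vertical axis, percent) for each of the 5 assays (horizontal axis) in the 4 groups; points are shares and bars exact 95% intervals over cells. Control cells at 0 h are lowest for every assay, between 10.1% and 34.8%, while 0 h ethanol cells range from 20.0% for A17 to 78.2% for A03.

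Each assay was chosen in 1 of 3 comparisons, and its differences in all 3 are given below. All 3 served to choose the set, so these gains and ranks describe the choice and are no support beyond it. From 0 h to 24 h on the control diet, which chose A08 with a gain of 61.5 percentage points, A31 was higher by 56.0 points, A03 by 54.3, A83 by 53.5 and A17 by 49.9, and these are ranks 1, 3, 4, 5 and 7 of the 84 gains. All 5 gained at least 20 points, as did 28.6% of the panel (24 of 84), with a median gain of 9.75 points over all assays. The assays just outside on this list were A82, with 61.2 points, and A45, with 51.7.

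On the ethanol diet, A17 and A31 led with 33.7 and 32.3 points, and the next in rank was A45 with 31.9. A08 gained 28.7 points, A83 19.6 and A03 differed by -0.40. Thus 3 of the 5 gained at least 20 points, against 17.9% of the panel. The median over the panel was 8.45 points.

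Between diets at 0 h, A03 and A83 led with 43.4 and 33.5 points and the next in rank was A44 with 32.5. A31 was higher in ethanol cells by 32.4 points, A08 by 28.8 and A17 by 9.86. At least 20 points were reached by 4 of the 5 and by 15.5% of the panel. Between diets at 24 h, which chose no assay, the 5 differences were -11.3 points for A03, -6.30 for A17, -4.04 for A08, -0.40 for A83 and 8.69 for A31. None of the 5 reached 20 points there, against 1.19% of the panel, and the median difference over the panel was -0.12 points. The comparisons over time and between diets share the 0 h control cells, so their gains are not independent.

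By median Ct from early to late, these assays ranked 36 (A03), 43 (A83), 53 (A17), 54 (A08) and 66 (A31) of 84. Their median Ct where they had a value was 13.8 for A03, 14.1 for A83, 14.7 for A17, 14.8 for A08 and 15.6 for A31, against a median of 14.1 over the 84 assays, although the Ct of different assays also depends on their primers. The part of their values above Ct 20 was 3.73% for A83, 4.39% for A31, 4.69% for A08, 5.70% for A03 and 6.25% for A17. The median of this percentage over the 84 assays was 4.32%, below all of these except A83. Pooled over all values in the table it was 8.07%. Of 18 assays with a median Ct at or above that of A31, 13 were detected in more cells than A31. The same held for 24 of 31 assays for A17, 21 of 30 for A08, 24 of 41 for A83 and 25 of 48 for A03. An assay picked for a large gain in share had to be missing from many cells of 1 group, so these counts are a description.

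The level was taken among the cells with a value, as the overall Ct of the cell minus the Ct of the assay, a log2 scale on which higher means more transcript relative to the common assays. It was compared between groups only where both had at least 10 cells with a value, which leaves out A17 and A31 in 0 h control cells. The level of A03 was -0.81 ± 1.32 (SD, n = 24 cells) in 0 h control cells, -0.77 ± 1.27 (SD, n = 49 cells) in 24 h control cells, -0.88 ± 2.61 (SD, n = 43 cells) in 0 h ethanol cells and -0.26 ± 1.12 (SD, n = 42 cells) in 24 h ethanol cells. The groups overlapped throughout. Ethanol cells at 0 h spread widest, from -12.6 to 4.88 with a median of -0.67, and the cell at 4.88 had an overall Ct of 19.1. The cell at -12.6 had an overall Ct of 12.9 and an A03 Ct of 25.4, near the highest deposited Ct of 25.9. With values above Ct 20 treated as missing, the A03 difference over time on ethanol was 0.03 instead of 0.62. Between diets at 0 h it was 0.49 instead of -0.07.

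The level of A08 was -2.17 ± 1.49 (SD, n = 14 cells) in 0 h control cells and -1.82 ± 1.54 (SD, n = 45 cells) at 24 h. In ethanol cells it was -1.48 ± 1.50 (SD, n = 27 cells) at 0 h and -2.45 ± 1.94 (SD, n = 42 cells) at 24 h. On the ethanol diet the level at 24 h was therefore lower by 0.97, written as the difference -0.97, while detection was higher by 28.7 points. On the control diet the level differed by 0.34 and the share by 61.5 points.

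Among A03, A08 and A83, the 3 assays compared on the control diet, A83 had the widest difference in mean level, 0.95, from -2.11 ± 2.06 (SD, n = 17 cells) at 0 h to -1.16 ± 1.22 (SD, n = 43 cells) at 24 h. With medians over cells in place of means that difference was 1.60, and without the cells of overall Ct above 17 it was 1.41. In 1 control cell at 0 h the level was 4.94, far above the 0 h median of -2.61. That cell had an overall Ct of 21.1, and a high overall Ct raises the level by definition. In ethanol cells A83 stood at -1.40 ± 2.53 (SD, n = 32 cells) at 0 h and -0.86 ± 1.38 (SD, n = 42 cells) at 24 h. The highest level of A83 in 0 h ethanol cells, 9.07, was likewise in a cell of high overall Ct, 22.3.

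A31 was at -2.48 ± 2.16 (SD, n = 38 cells) in 24 h control cells, -3.07 ± 1.89 (SD, n = 25 cells) in 0 h ethanol cells and -3.06 ± 1.54 (SD, n = 42 cells) in 24 h ethanol cells, so on the ethanol diet its mean differed by 0.01 while its share was higher by 32.3 points. The 9 0 h control cells with a value were too few to compare and stood lowest, at -4.14 ± 2.19 (SD).

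A17 was at -1.55 ± 1.95 (SD, n = 33 cells) in 24 h control cells, -1.32 ± 3.24 (SD, n = 11 cells) in 0 h ethanol cells and -1.95 ± 2.19 (SD, n = 29 cells) in 24 h ethanol cells. The 7 0 h control cells with a value were again too few to compare and stood lowest, at -4.48 ± 3.51 (SD), from -9.76 to -0.47 with a median of -5.29. In 0 h ethanol cells the median of A17, -2.42, lay below the mean, with 1 cell at 7.59. That was the same cell of overall Ct 22.3 that gave the highest A83 level.

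In the 16 comparisons of an assay that could be made, no mean level differed by 1 or more. Over the panel 31.2% of the assays compared did so from 0 h to 24 h on the control diet, where 3 of the 5 were compared. The panel's share was 16% over time on the ethanol diet, with all 5 compared, 20.8% between diets at 0 h, with 3 compared, and 5.95% between diets at 24 h, with 5 compared. With the unscaled Ct some reached 1: 1.16 for A83 on the control diet, 1.29 for A03 and 1.15 for A83 on the ethanol diet, 1.24 for A08 between diets at 0 h and 1.43 for A03 between diets at 24 h. With medians over cells in place of means, A08 differed by -1.22 on the ethanol diet and A83 by 1.28 between diets at 0 h, beside the 1.60 of A83 on the control diet. A17 on the ethanol diet turned from -0.63 by means to 1.10 by medians, so its direction in level was not settled. With values above Ct 20 treated as missing, A83 reached 1.07 on the control diet and A08 -1.01 on the ethanol diet.

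**Figure D2:**
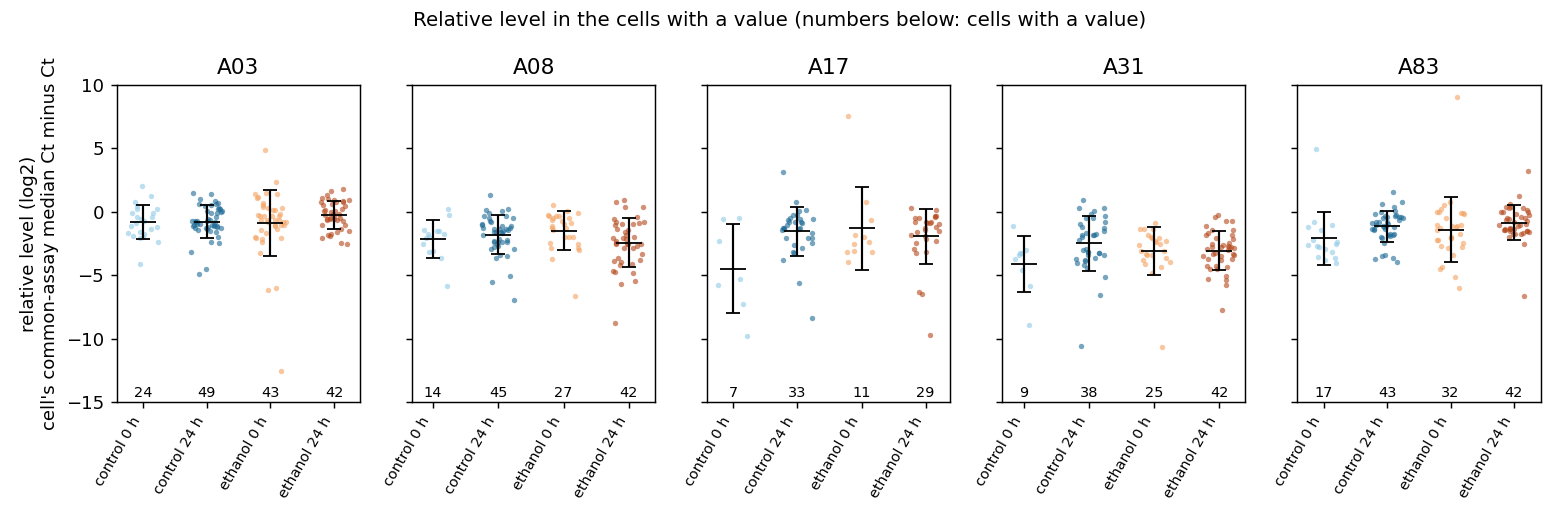
Relative level (vertical axis, log2: overall Ct of the cell minus the Ct of the assay) in each cell with a value, for the 5 assays and 4 groups; horizontal bars are means, whiskers 1 SD over cells, and the numbers at the bottom count the cells. The clouds of the groups overlap for every assay. The number of points differs, such as 14 against 45 for A08 in 0 h and 24 h control cells, and the few 0 h control cells with A17 or A31 lie low, at means of -4.48 and -4.14.

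Detection went with the overall Ct of the cell in every group. Cells with a value for A03 had a median overall Ct of 13.8 in 0 h control cells against 14.7 in those without, and 13.0 against 16.1 in 0 h ethanol cells. For all 5 assays in all 4 groups the cells with a value had the lower median overall Ct. The groups were therefore also compared after splitting the 233 cells at their median overall Ct, about 13.6, into lower-Ct and higher-Ct cells, a split added after seeing that finer strata held few cells. Of 0 h control cells, 19 were lower-Ct cells and 50 higher-Ct cells. The numbers were 37 and 18 in 24 h control cells, 27 and 28 in 0 h ethanol cells and 34 and 20 in 24 h ethanol cells. The median overall Ct of the lower-Ct cells was 12.6, 12.9, 12.4 and 12.5 in the same order of groups.

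Among lower-Ct cells, A08 was detected in 31.6% of 0 h control cells (6 of 19, 12.6% to 56.6%) and 91.9% of 24 h control cells (34 of 37, 78.1% to 98.3%). In ethanol cells it was detected in 70.4% at 0 h (19 of 27, 49.8% to 86.2%) and 94.1% at 24 h (32 of 34, 80.3% to 99.3%). The intervals of the diets overlapped at 0 h. The gain on the control diet was 60.3 points, close to the 61.5 points over all cells.

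A31 among lower-Ct cells was detected in 31.6% of 0 h control cells (6 of 19, 12.6% to 56.6%) and 89.2% at 24 h (33 of 37). In ethanol cells it was detected in 63.0% at 0 h (17 of 27, 42.4% to 80.6%) and 88.2% at 24 h (30 of 34). For A31 too the intervals of the diets overlapped at 0 h. A03 was detected in 57.9% of 0 h control cells (11 of 19) and in 94.6% (35 of 37), 96.3% (26 of 27) and 94.1% (32 of 34) of 24 h control cells, 0 h ethanol cells and 24 h ethanol cells. Nearly every lower-Ct cell of those 3 groups thus held A03, and fewer of the 0 h control cells did.

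A83 among lower-Ct cells was detected in 57.9% of 0 h control cells (11 of 19, 33.5% to 79.7%) and 77.8% of 0 h ethanol cells (21 of 27, 57.7% to 91.4%). These intervals overlapped, and the gap between diets was 19.9 points against 33.5 over all cells. For A17 the lower-Ct cells at 0 h were alike on both diets, with 26.3% of control cells (5 of 19, 9.15% to 51.2%) and 25.9% of ethanol cells (7 of 27, 11.1% to 46.3%). At 24 h A17 was detected in 75.7% of lower-Ct control cells (28 of 37, 58.8% to 88.2%) and 64.7% of lower-Ct ethanol cells (22 of 34, 46.5% to 80.3%).

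Among higher-Ct cells the shares were lower throughout. Control cells at 0 h ranged from 4.00% for A17 (2 of 50) to 26.0% for A03 (13 of 50), and 0 h ethanol cells from 14.3% for A17 (4 of 28) to 60.7% for A03 (17 of 28). Control cells at 24 h ranged from 27.8% for both A17 and A31 (5 of 18 each) to 77.8% for A03 (14 of 18). In 24 h ethanol cells the range was from 35.0% for A17 (7 of 20) to 65.0% for A83 (13 of 20). Of the 5, A31 differed most between diets among higher-Ct cells at 24 h. It was detected in 27.8% of control (9.69% to 53.5%) and 60.0% of ethanol cells (12 of 20, 36.1% to 80.9%), and the intervals overlapped. The median overall Ct of the higher-Ct cells at 24 h was 15.0 in control and 14.1 in ethanol cells, so the groups were not matched in it. Standardised over 4 strata of overall Ct, as described below, the difference of A31 was 3.81 points.

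**Figure D3:**
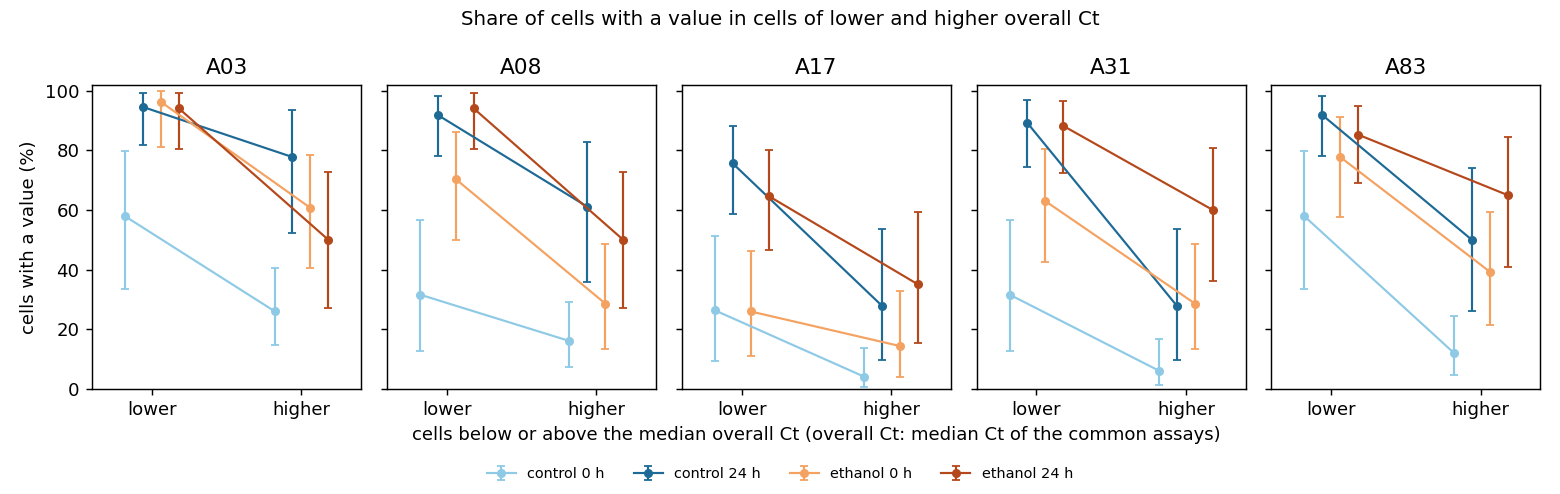
Share of cells with a value (vertical axis, percent) among cells below and above the median overall Ct (horizontal axis), for the 5 assays and 4 groups; bars are exact 95% intervals over cells, and lines join the cells of 1 group. All lines fall to the right, and 0 h control cells stay lowest for A03, A08, A31 and A83 on both sides, while for A17 the lower-Ct cells at 0 h coincide at 26.3% and 25.9%.

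With shares standardised to the same overall Ct, over 4 strata cut at the quartiles of all cells, the gains were smaller. From 0 h to 24 h on the control diet they were 51.5 points for A08, 45.5 for A03, 40.9 for A31, 38.0 for A17 and 34.4 for A83. All 5 stayed above 20 points, against 21.4% of the panel. Between diets at 0 h, A03 kept 37.3 points, A31 27.8, A08 25.2 and A83 21.8, while A17 had 5.96, so 4 of the 5 stayed above 20 points, against 10.7% of the panel. Between diets at 24 h, 1.19% of the panel gained at least 20 points and none of the 5 did. That rule counts gains only. A03 differed there by -19.4 points, the lowest of the 84 standardised differences, while A31 differed by 3.81. The stratum of highest overall Ct held only 4 of the 24 h ethanol cells. The A03 difference was smaller in size without that stratum, or with the split at the median overall Ct as the strata. It was larger in size when standardised to the number of other assays, or with NULL left out of the overall Ct. It was negative in each case, and its rank is not given for these settings. Unstandardised, the difference of A03 was -27.8 points among higher-Ct cells and -0.48 among lower-Ct cells.

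On the ethanol diet the standardised gains over time were 22.2 points for A17, 17.9 for A08, 17.0 for A31, 8.74 for A83 and -11.1 for A03. Only A17 stayed above 20 points, against 8.33% of the panel. The stratum of highest overall Ct held 4 24 h ethanol cells. Without that stratum the gains were 34.3 points for A17, 27.3 for A31, 17.8 for A08, 10.5 for A83 and -8.90 for A03, so A31 passed 20 points without that stratum and not with it. Leaving it out also removed 14 0 h ethanol cells, of which 2 had A31, and changed the weights. With the split at the median overall Ct as the strata, A08 gained 22.6 points and A31 28.3. Standardised instead to the number of other assays with a value in the cell, A17 kept 21.6 points, while A31 had 14.1, A08 9.36, A83 2.61 and A03 -19.8.

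The 5 assays were detected in the same cells more often than their shares alone would give. The number of the 5 with a value per cell had a median of 1 in 0 h control cells, 4 in 24 h control cells, 3 in 0 h ethanol cells and 4 in 24 h ethanol cells. The means were 1.03 ± 1.24 (SD, n = 69 cells), 3.78 ± 1.47 (SD, n = 55 cells), 2.51 ± 1.56 (SD, n = 55 cells) and 3.65 ± 1.52 (SD, n = 54 cells). None of the 5 was measured in 43.5% of 0 h control cells (30 of 69), 1.82% at 24 h (1 of 55), 16.4% of 0 h ethanol cells (9 of 55) and 9.26% at 24 h (5 of 54). At least 4 of the 5 were measured in 4.35% of 0 h control cells (3 of 69) and 69.1% at 24 h (38 of 55), and in 36.4% of 0 h ethanol cells (20 of 55) and 70.4% at 24 h (38 of 54).

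**Figure D4:**
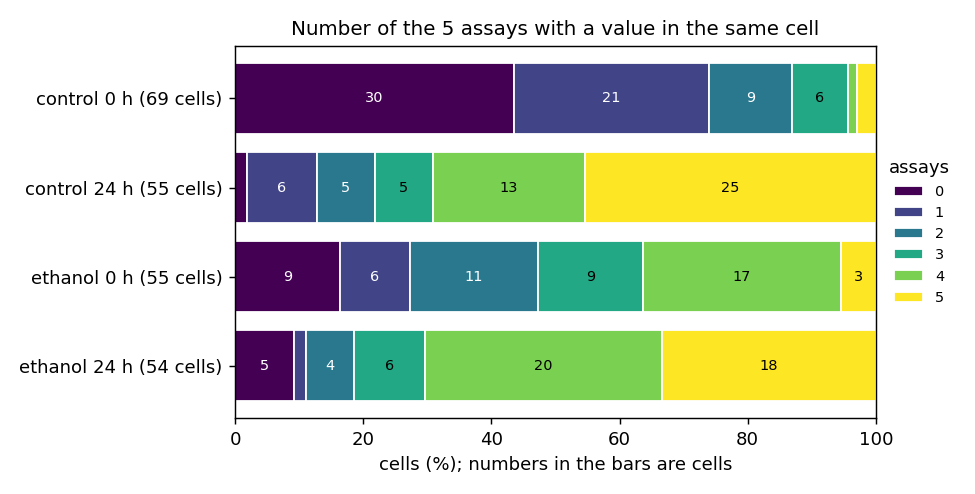
Cells of each group (horizontal axis, percent of cells) by how many of the 5 assays were detected in the same cell, from 0 to 5 by colour; numbers in the bars are cells. Control cells at 0 h lie mostly at 0 and 1 (51 of 69 cells), both groups at 24 h mostly at 4 and 5 (38 of 55 and 38 of 54), and 0 h ethanol cells spread over the whole range.

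Had the 5 assays been detected independently within each group, 22.3 cells would have had none and 24.7 cells all 5, where 45 and 48 were found. Allowing the shares to differ also between the 4 strata of overall Ct, the expected numbers were 34.6 and 39.6. The variance of the number per cell within strata was 2.25 times that of independent detection with groups alone as strata and 1.69 times with group and overall Ct. Within group and overall Ct it was 1.47 in 0 h control cells, 1.83 in 24 h control cells, 1.71 in 0 h ethanol cells and 1.77 in 24 h ethanol cells. The ratio was thus lower with overall Ct in the strata than without, and it stayed above 1 in each group. With strata of group and the number of other assays with a value, it was 1.33 over all groups. The ratio is not given for other sets of 5 assays, so it cannot be called particular to these.

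By pairs, joint detection was described with the Mantel-Haenszel odds ratio, which is 1 where the assays are independent within strata. Within group and overall Ct stratum, A31 and A83 had the highest ratio, 6.83, followed by A08 and A31 at 5.61 and A03 and A31 at 4.04. A08 and A83 were at 3.09, A03 and A83 at 2.71, A17 and A83 at 2.26 and A03 and A08 at 2.12. The remaining 3 pairs all held A17, with 1.67 for A17 and A31, 1.46 for A03 and A17 and 0.74 for A08 and A17.

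The median of the 10 pairs was 2.48, against 1.35 over the 1534 pairs of the 56 assays outside the common set that gave a ratio. At least 2 was reached by 7 of the 10 and by 30.2% of those pairs. With groups alone as strata, 9 of the 10 reached 2, against 52% of the panel's pairs, and the medians were 5.00 and 2.07. The pairs share assays and cells, so the 10 ratios are not independent of each other. Stratified instead by the number of the 79 other assays with a value in the cell, the ratios were smaller, at 4.45 for A08 and A31, 3.57 for A31 and A83 and 2.61 for A03 and A31, with the other 7 between 0.35 and 1.73. Among the 182 cells that did not lack a further set of assays together, described at the end, the ratio was 2.20 for A03 and A31, 1.67 for A03 and A83, 4.52 for A17 and A83 and 1.13 for A08 and A17.

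**Figure D5:**
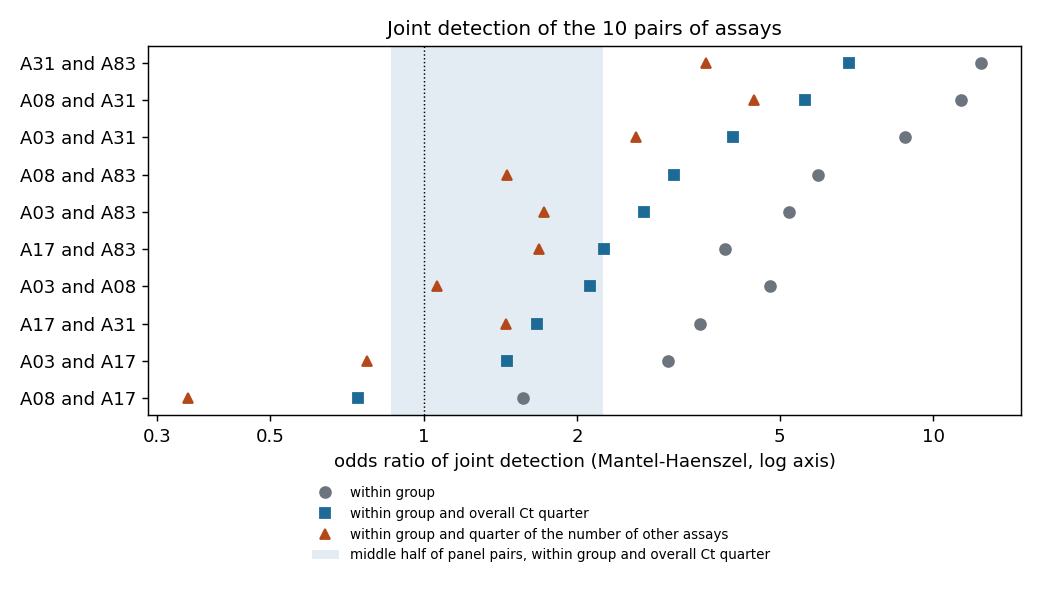
Odds ratio of joint detection (horizontal axis, log scale) for the 10 pairs (vertical axis), within group, within group and stratum of overall Ct, and within group and stratum of the number of other assays with a value; the band holds the middle of the panel's pairs, from 0.86 to 2.25. The 3 pairs of A31 with A83, A08 and A03 stand highest under each of the 3 stratifications, and A08 with A17 stands lowest under each, at 1.57, 0.74 and 0.35.

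In each group A83 was detected more often in cells with A31 than in cells without A31, here without regard to overall Ct. In 24 h ethanol cells each was detected in 42 cells, and 39 cells held both. A83 was detected in 92.9% of the cells with A31 (39 of 42) and 25.0% of those without (3 of 12). In 0 h ethanol cells it was detected in 84.0% of the cells with A31 (21 of 25) and 36.7% of those without (11 of 30). In 24 h control cells the shares were 94.7% (36 of 38) and 41.2% (7 of 17), and in 0 h control cells 55.6% (5 of 9) and 20.0% (12 of 60).

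How often A17 was detected in cells with all of the other 4 was examined after the values were seen. All of A03, A08, A31 and A83 were detected in 2.90% of 0 h control cells (2 of 69, 0.35% to 10.1%) and 60.0% of 24 h control cells (33 of 55, 45.9% to 73.0%). In ethanol cells all 4 were detected in 32.7% at 0 h (18 of 55, 20.7% to 46.7%) and 57.4% at 24 h (31 of 54, 43.2% to 70.8%). Of those cells, A17 was detected in 16.7% at 0 h on ethanol (3 of 18, 3.58% to 41.4%), 58.1% at 24 h on ethanol (18 of 31, 39.1% to 75.5%) and 75.8% at 24 h on the control diet (25 of 33, 57.7% to 88.9%), and in both of the 2 such 0 h control cells. Among the remaining 0 h ethanol cells, without all 4, A17 was detected in 21.6% (8 of 37, 9.83% to 38.2%), an interval that overlapped that of the cells with all 4. In the 0 h ethanol cells A17 was found in 23.3% of cells with A03 (10 of 43) and 8.33% of those without (1 of 12), in 25.0% with A83 (8 of 32) and 13.0% without (3 of 23), in 14.8% with A08 (4 of 27) and 25.0% without (7 of 28), and in 20.0% both with A31 (5 of 25) and without (6 of 30). Restricted to lower-Ct cells, the shares of A17 were 18.8% (3 of 16, 4.05% to 45.6%), 66.7% (18 of 27, 46.0% to 83.5%) and 82.8% (24 of 29, 64.2% to 94.2%) at 0 h on ethanol, 24 h on ethanol and 24 h on the control diet. The commonest single combination in 0 h ethanol cells was A03, A08, A31 and A83 without A17, in 15 of 55 cells, and in both groups at 24 h it was all 5 together, in 25 of 55 control and 18 of 54 ethanol cells.

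Levels were also set against each other across cells. Among cells with both values, after removal of group means, Spearman's rho of relative levels ran from 0.11 for A17 and A31 (n = 62 cells) to 0.42 for A03 and A08 (n = 111 cells), with a median of 0.28 over the 10 pairs. On unscaled Ct the median was 0.52. These points share the overall Ct of the cell, and they are given as a description across cells.

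For each of the 5, the other assay of the panel whose detection was most like it was found by the phi coefficient of detection across the 233 cells after removal of group means, among 69 assays with a value in 5% to 95% of cells. It was A30 for A03 (phi 0.48), A43 for A08 (0.48), A64 for A17 (0.31), A84 for A31 (0.40) and A27 for A83 (0.38), against median phi values of 0.13 to 0.21. Within the 5, A31 and A83 were closer to each other (0.50) than to any assay outside. The other 3 were each closer to the outside assay. Their highest phi within the 5 was 0.36 for A03, 0.27 for A17 and 0.474 for A08, the last against 0.482 with A43. A30 resembled A03 also by group, with a value in 40.6% of 0 h control cells, 89.1% at 24 h, 72.7% of 0 h ethanol cells and 83.3% at 24 h.

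A set of 51 cells lacked the 5 other assays A05, A11, A29, A56 and A66 together, in all groups. Among the remaining 182 cells the shares of the assays described here were close to those above: A08 was detected in 24.1% of 0 h control cells (13 of 54) and 86.0% at 24 h (37 of 43), and A17 in 15.2% of 0 h ethanol cells (7 of 46) and 56.4% at 24 h (22 of 39). A03 was detected in 37.0% of 0 h control cells (20 of 54) and 78.3% of 0 h ethanol cells (36 of 46). Among the 51 cells the counts were small and some shares were unlike these. A17 was detected there in 44.4% of 0 h ethanol cells (4 of 9) and 46.7% at 24 h (7 of 15). A08 was detected there in 66.7% of 24 h control cells (8 of 12) and 86.7% of 24 h ethanol cells (13 of 15). A03 in 0 h ethanol cells was alike, at 77.8% (7 of 9).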

How the data were processed

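Expression of 84 assays was measured in 233 single cells. Per the labels' protocols, lysed cells were reverse transcribed, put through 22 cycles of targeted pre-amplification and amplified for 30 cycles on a BioMark array with SYBR Green. The authors deposited Ct values, a log2 scale of template, in a table they call non-normalized; the sources used here do not state the software, how a NULL was called or whether a reference gene was used. Columns were matched to cells by the description in the labels, 0 columns were left over and no columns were identical. Every cell had at least 31 assays with a value.

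Shares carry exact Clopper-Pearson 95% intervals, which cover counting error over cells only. Levels were compared where each group had at least 10 cells with a value. Size rules were 20 percentage points for shares and 1 for levels. Standardised shares weight the 4 strata of overall Ct as in all cells. The assays named besides the 5 are the next in rank by share gain and the most alike by phi. The 5 assays, the lists and the rules were chosen with earlier results of these data known. Calculations were tested on simulated data and made in Python 3.11.15 with pandas 2.3.3, numpy 2.4.6 and scipy 1.17.1.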

Additional observations from a re-analysis of the deposited data

Results flagged for a closer look

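For A03 over time, and for A08 and A83 between diets, a gain in share in 1 comparison had no counterpart in the matching one, where the value was near or below 0. Over time on the ethanol diet A08 and A83 did gain, by 28.7 and 19.6 points, against 61.5 and 53.5 on the control diet. A03 already stood at 78.2% in 0 h ethanol cells, against 34.8% in 0 h control cells, which left less room for a gain in points. The share of A03 differed by 54.3 points from 0 h to 24 h with control feeding and by -0.40 with ethanol, a difference between diets of -54.7 points. The share of A08 differed between diets by 28.8 points at 0 h and -4.04 at 24 h, which gave -32.8. The share of A83 differed between diets by 33.5 points at 0 h and -0.40 at 24 h, which gave -33.9. The values of -0.40 are each less than 1 cell of a group and changed sign with the processing: A03 on the ethanol diet was at 6.87 with values above Ct 20 treated as missing, and A83 between diets at 24 h was at 1.38 with that setting and 4.15 when standardised over 2 strata of overall Ct. The level of A08 differed from 0 h to 24 h by 0.34 with control feeding and -0.97 with ethanol, which gave -1.31. None of these differences was tested, since each group counted as 1 sample, and each holds the 0 h control cells, which had the highest overall Ct.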

How the results depend on the processing

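Each value was recomputed with 1 choice changed. Of 170 share differences recomputed, 156 stayed within the counting interval of the value reported. The 14 that moved were mostly those standardised to the number of other assays with a value. From 0 h to 24 h on the control diet that setting gave 32.7 points for A03, 40.1 for A08, 22.9 for A17, 35.6 for A31 and 31.1 for A83. On the ethanol diet it gave -19.8 for A03, 9.36 for A08 and 14.1 for A31, and between diets at 0 h it gave -5.38 for A17. For A83 on the control diet, standardising gave 34.4 points over 4 strata of overall Ct, 35.0 with NULL left out of the median, 36.0 over 2 strata and 32.2 over the 3 lower strata. Between diets at 24 h A08 differed by 20.0 points among the 51 cells lacking A05, A11, A29, A56 and A66.

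The number of panel assays that gained 20 points was 14, 2 and 6 when standardised to the number of other assays (control diet, ethanol diet, between diets at 0 h), against 24, 15 and 13. Standardised to overall Ct it was 7 on the ethanol diet, or 8 with NULL left out of the median, which gave 8 between diets at 0 h. Between diets at 24 h, where 1 assay passed, the number was 0 over 2 strata, 3 over the 3 lower strata, 2 with values above Ct 20 treated as missing, 6 among the 51 cells and 3 among the other 182.

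Of 110 level differences, 99 stayed within 1 SD over cells, among them A17 on the ethanol diet, which nonetheless turned from -0.63 to 1.10 with medians over cells. The other 11 are those in which every NULL was given Ct 30, so that share and level are mixed by construction. They were 8.09 for A03, 8.70 for A08 and 8.15 for A83 on the control diet, 3.02 for A08, 4.54 for A17, 3.99 for A31 and 3.05 for A83 on the ethanol diet, 6.73 for A03, 4.52 for A08 and 5.06 for A83 between diets at 0 h, and -1.23 for A03 at 24 h.

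Joint detection depended most on the strata. Within group alone the odds ratios were 4.78 for A03 and A08, 3.02 for A03 and A17, 8.79 for A03 and A31, 5.21 for A03 and A83, 1.57 for A08 and A17, 11.3 for A08 and A31, 5.95 for A08 and A83, 3.48 for A17 and A31, 3.90 for A17 and A83 and 12.4 for A31 and A83. By the number of other assays they were 1.06 for A03 and A08, 0.77 for A03 and A17, 2.61 for A03 and A31, 1.73 for A03 and A83, 0.35 for A08 and A17, 1.46 for A08 and A83 and 3.57 for A31 and A83. Among the 182 cells they were 2.20 for A03 and A31, 1.67 for A03 and A83, 1.13 for A08 and A17 and 4.52 for A17 and A83. The cause of these shifts was not tested. The split at the median overall Ct, the 3 lower strata and the setting with NULL left out were chosen after seeing the data.

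Differences among the 51 cells that involve 0 h ethanol cells were not computed, since 9 such cells remained. No paired analysis was possible because a cell's number only names it inside its group and links it to no animal. Counts of 7 and 9 cells with a value limit what can be said of the levels of A17 and A31 in 0 h control cells.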
